A study of Homo sapiens with 12 samples.

Results

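The genes described here are BC200 RNA, listed under its gene symbol BCYRN1, and 5 further short noncoding RNAs made by RNA polymerase III (Pol III), namely RMRP, RPPH1, RN7SK, RN7SL1 and RN7SL2. They were chosen by symbol, with the study's own comparisons of these same samples already known, so that their levels are a description and were given no test. Of the 6 symbols, 5 were among the 23292 symbols in the deposited tables. RN7SL2 was not among them, and it is described by its sequence alone. The RNA came from HEK293T cells, a human embryonic kidney line that carries the SV40 large T antigen, although the growth protocol calls the cells HEK293. The 12 samples fell into 4 groups of 3, treated for 6 h with vehicle (DMSO) or with 10 µM of AA263, AA263yne or AA263-5, which belong to a series of compounds studied as pharmacologic activators of ATF6, an endoplasmic reticulum stress sensor. No sample differed from the others in genotype, and the labels name no further allele or agent. Each level below is the mean over all 12 samples, as the authors computed it from their normalized values, so it has no error and cannot be divided by treatment. The study asked how the compounds change transcription. That question is not addressed here, since no value of a single sample or group was used. What follows is how strongly each Pol III RNA was represented in the sequenced libraries. The labels describe these as made after enrichment on oligo dT, which binds runs of A, and amounts in the cells were not measured.

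Pol III makes short, abundant RNAs such as transfer RNAs, the U6 spliceosomal RNA and the RNAs described here. Some of its genes carry their promoter inside the transcribed part, as an A box and a B box that the factor TFIIIC binds, while others are driven by elements before the start that the SNAPc complex binds, and a run of T in the DNA ends transcription. BC200 is a primate RNA that arose from an Alu element, a repeat that itself descends from 7SL RNA, and it is known in neurons and tumor cells as a cytoplasmic RNA that dampens translation. RN7SL1 and RN7SL2 encode 7SL RNA, the scaffold of the signal recognition particle (SRP) that guides secretory proteins to the endoplasmic reticulum. RN7SK encodes 7SK RNA, which holds the elongation kinase P-TEFb inactive. RMRP is the RNA of RNase MRP, which cuts precursor ribosomal RNA, and RPPH1 is the RNA of RNase P, which trims the 5′ end of transfer RNAs.

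BC200 RNA is described first because it set the members' summed level. The RNA is 200 bases long, and its gene is at chr2:47335315-47335514 on the plus strand of GRCh38 and is annotated by GENCODE as a small cytoplasmic RNA without introns. It overlaps EPCAM-DT, a long noncoding RNA gene on the other strand. The first bases of BC200 resemble 7SL RNA. Bases 2 to 117 aligned with bases 1 to 104 of RN7SL1 at 87 of 117 columns (74.4% identical). An A-rich stretch follows, in which bases 118 to 167 hold 36 A, and the end is rich in C.

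The 7SL RNAs encoded by RN7SL1 and RN7SL2 are nearly the same. Compared base by base from the first base, they differ at 4 of 299 positions. RN7SL1 is at chr14:49586580-49586878 on the plus strand and RN7SL2 at chr14:49862550-49862849 on the minus strand. RN7SL1 overlaps RPS29, a ribosomal protein gene on the other strand, which had a level of 1291 (4376 per kilobase).

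7SK RNA is shown because only its 3′ part holds stretches with no second exact match in the genome, although with up to 2 mismatches every stretch of 50 bases had one. It is given 5′ to 3′ from the GENCODE transcripts on GRCh38, with T for U. Bases 101 to 328 are given, and capitals mark bases 215 to 328, the 114 bases that are covered by stretches of 50 bases found, by exact match, at a single place.
RN7SK: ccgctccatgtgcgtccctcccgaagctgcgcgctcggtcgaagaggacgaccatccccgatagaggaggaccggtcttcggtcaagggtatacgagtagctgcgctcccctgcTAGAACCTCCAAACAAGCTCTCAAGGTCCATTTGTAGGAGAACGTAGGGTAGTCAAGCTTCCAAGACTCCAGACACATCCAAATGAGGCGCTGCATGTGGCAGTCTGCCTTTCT
RN7SK is at chr6:52995621-52995948 on the plus strand, 317 bases from GSTA4, which lies on the other strand. RMRP (chr9:35657754-35658017, minus strand, 264 bases long) lies 273 bases from CCDC107 and 858 bases from ARHGEF39. RPPH1 (chr14:20343075-20343407, minus strand, 333 bases long) overlaps a long noncoding RNA gene without a symbol on the same strand and lies 208 bases from PARP2. RN7SK and RN7SL2 are also each overlapped by another noncoding RNA gene on the same strand. Per kilobase, the listed neighbours of these 3 RNAs had levels of 623 for CCDC107, 714 for ARHGEF39, 1523 for PARP2 and 655 for GSTA4, and each of these exceeded the level per kilobase of the Pol III RNA beside it.

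BC200 had by far the highest level of the listed members. Its level was 59756.7, in the deposited mean normalized signal not divided by length, and on that scale it was ranked 54 of 23292 symbols, above 99.8% of them. Of the 53 symbols above BC200, 14 were mitochondrial and 39 nuclear. BC200 made up 0.1634% of the summed level of all symbols and 99.53% of the summed level of the 5 listed members.

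The other 4 members had levels in the middle of all symbols. RN7SK had a level of 141.59, which was above 52.7% of symbols, against a median of 99.7 over all symbols. The level of RN7SL1 was 56.96 (above 45.7% of symbols). RPPH1, at 40.98, was above 43.5% of symbols and RMRP, at 39.72, above 43.3%. Summed, these 4 RNAs reached 279.26, or 0.000764% of the summed level. All 5 listed members were at a level of 10 or more, as were 15638 of all symbols, and among those symbols the 4 lower members were above only 15.5% to 29.6%.

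**Figure D1:**
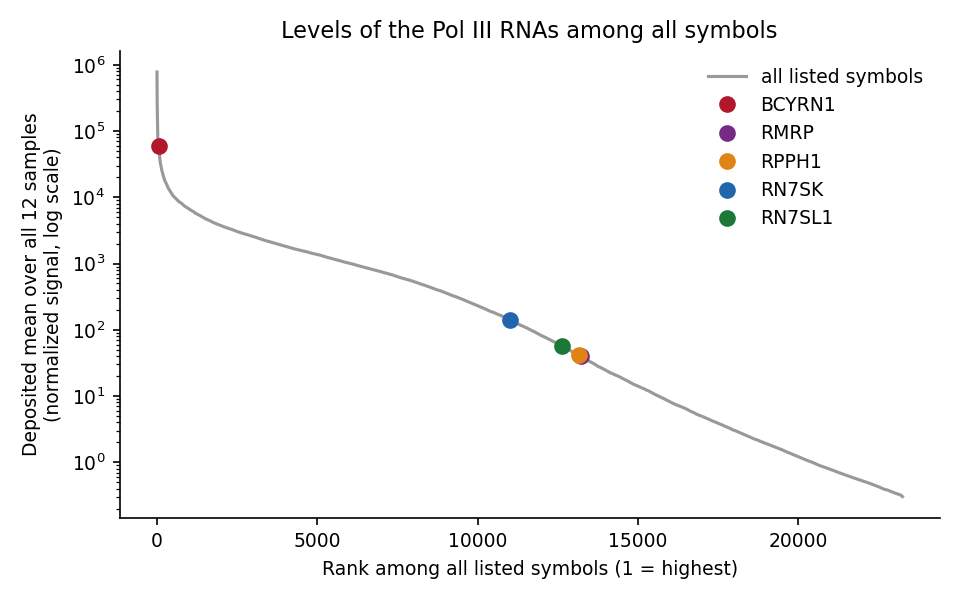
Deposited mean over all 12 samples (normalized signal, log scale) against the rank among all listed symbols, with the grey line for all symbols and a point for each listed Pol III RNA. BCYRN1 sits at rank 54 with 59756.7, and the other 4 members sit between 39.72 and 141.59, at rank 11011 (RN7SK) or later.

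The levels were next divided by length, the scale on which RNAs of different length are compared below. Whether the deposited values already carried some correction for length is not known. The median level rose little with length, from 578 over the 3520 shortest nuclear symbols (up to 1958 bases) to 782 over the 3517 longest (5163 bases or more), while the median per kilobase fell from 462 to 102, so that short RNAs sit higher on the per kilobase scale. Per kilobase of RNA, the level of BC200 was 298783. RN7SK followed at 432 per kilobase, so that BC200 was 692-fold above it, against 422-fold before division by length. RN7SL1 came next at 191 per kilobase, 2.27-fold below RN7SK. RMRP had 150 per kilobase and RPPH1 had 123 per kilobase, and the neighbours in this order differed by 1.27-fold (RN7SL1 over RMRP) and 1.22-fold (RMRP over RPPH1). Since a pooled mean holds no spread between samples, none of these steps could be set against replicate error, and the 3 lowest cannot be placed in a firm order. The order of RMRP and RPPH1 turned round when levels were not divided by length.

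The per kilobase level of BC200 was the highest of all nuclear symbols with a level of at least 10 and a known length, whereas 39 nuclear symbols were above it before division by length. In all, 14110 symbols met both conditions, with a median of 207.4 per kilobase. The 9 symbols above BC200 were all mitochondrial and included COX1, COX2 and ND3, subunits of the respiratory chain. RACK1, a ribosome-bound signaling scaffold, was the next nuclear symbol at 155373 per kilobase, so that BC200 was 1.92-fold above it. RPL27, a ribosomal protein gene, followed at 145873 per kilobase. On the same scale RN7SK was above 65.7% of the symbols, RN7SL1 above 48.2%, RMRP above 43.8% and RPPH1 above 40.1%.

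A read is hard to assign to a member where another place in the genome or an overlapping gene shares its sequence. Each RNA was therefore cut into all overlapping windows of 50 bases, the read length the study states, and each window was searched on both strands of GRCh38. The reads were paired, and a mate in another part of the RNA can place a read that has several matches, which these single windows do not take into account. All 215 windows of RMRP and all 284 windows of RPPH1 occurred at a single place. In RN7SK 64 of 279 windows did (22.9%), in RN7SL1 39 of 250 (15.6%) and in RN7SL2 33 of 251 (13.1%). Other GENCODE genes with an exact 50-base match in the sense direction numbered 13 for RN7SK, most of which are annotated RN7SK pseudogenes, 10 for RN7SL1, 11 for RN7SL2 and 1 for RPPH1. The last is the long noncoding RNA gene that overlaps RPPH1, and it shares all 284 windows of RPPH1, so reads there match both annotated genes. The same holds for RN7SK and RN7SL2, where every window, those at a single place included, lies in at least 1 other annotated gene. No such gene was found for BCYRN1 or RMRP. RN7SL1 and RN7SL2 are each in the other's list.

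BC200 had the lowest share of windows with a single exact match, although with up to 2 mismatches allowed its share was 0.7% and those of RN7SK, RN7SL1 and RN7SL2 were 0.0%. Only 3 of its 151 windows (2.0%) occurred at a single place, and the median window occurred at 9 places. The windows of bases 50 to 99 and of bases 59 to 108 were the most repeated of BC200, with 36 places each. The 55 windows that start at base 97 or later occurred at 1 or 2 places. Bases 97 to 197, which include the A-rich stretch, matched without a mismatch at chr2:47335411-47335511, inside BCYRN1, and at chrX:139720675-139720775, where GENCODE places no gene. With up to 2 mismatches allowed, the most repeated window of BC200 occurred at 155 places, against 2639 for RN7SL1 and 2779 for RN7SL2. Single reads of 50 bases from most of BC200 thus match further places in the genome, and how the authors' counting treated reads with several matches was not given in the sources used here. The part that such reads had in the levels of BC200, RN7SK and RN7SL1 was not tested.

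**Figure D2:**
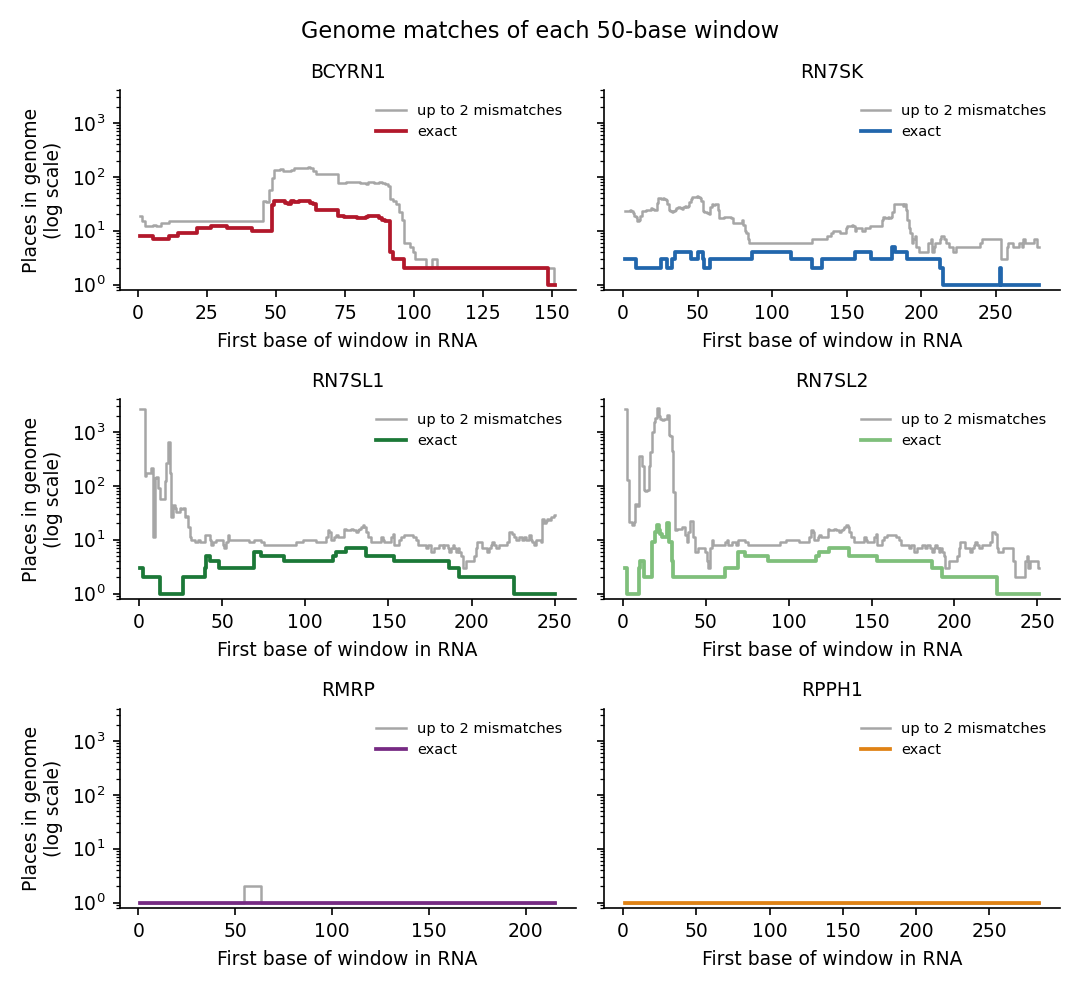
Number of places in the genome (log scale) that match each 50-base window of the 6 RNAs, against the first base of the window, with colored lines for exact matches and grey lines for up to 2 mismatches. BCYRN1 reaches 36 exact places for the window of bases 50 to 99 and falls to 1 or 2 from base 97, while RMRP and RPPH1 stay at 1 exact place throughout.

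The base content of BC200 also differed from that of the other members. A made up 33.0% of its bases, or 66 of 200, against 17.8% to 19.8% in the other 5 RNAs. Its longest run of A was 11 bases (bases 130 to 140), and those of the others were 2 to 4 bases. A run of 11 A was present in the first 300 bases of 0.85% of 54967 GENCODE canonical transcripts. The G and C content was 53.0% in BC200 and 58.2% to 64.6% in the others. The labels describe libraries made after enrichment on oligo dT, which binds runs of A, whereas the study's methods describe whole transcriptome libraries. The part of this enrichment in the levels of BC200 and of the other members was not tested.

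Motifs were searched on both strands of the RNAs, as an A box with the letters TGGCNCANG and a B box with the letters GTTCGANNC, where N is any base. BC200 held 1 of each in the sense direction, starting at bases 13 and 79, and the searched motifs do not overlap there. No match was present in the other 5 RNAs, which says only that these letters are not in them. Among the first 300 bases of the canonical transcripts, 7.44% held the A box letters and 1.07% the B box letters on either strand. Shares in the sense direction alone were not counted. A run of 4 or more T in the genomic DNA lay at the 3′ end of each of the 6 RNAs, and the longest, of 6 T, was at RMRP.

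Of the further Pol III RNAs, the U6 copies had the highest levels. Of 20 named, 11 were listed, and 5 had a level of 10 or more, all of them copies of U6, the catalytic spliceosomal RNA. Before division by length, their levels ranged from 15.7 for RNU6-7 to 46.5 for RNU6-2, all below RN7SK. Per kilobase they ranged from 147 for RNU6-7 to 435 for RNU6-2, which was near the 432 of RN7SK, and 4 of the 5 were above the median of 207.4 per kilobase. U6 is known to have several near-identical copies, and whether reads could be assigned to single copies was not tested. RNU6ATAC, of the minor spliceosome, had a level of 4.69, and the vault RNA VTRNA1-3 had a level of 3.34. RNY1, a Y RNA bound by Ro60, was at 0.298, and RNA5S1, a 5S ribosomal RNA gene, at 0.380.

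Short RNAs made by Pol II were mostly below a level of 10. Of 13 named, 10 were listed, and only TERC, the telomerase RNA, was at 10 or more (56.0, or 103 per kilobase). RNU1-1 and RNU2-1, spliceosomal RNAs, had levels of 1.71 and 0.678. Longer Pol II noncoding RNAs ranged more widely. SNHG1, a host gene of small nucleolar RNAs, had 2936 per kilobase and GAS5, another such host, had 1574 per kilobase. NEAT1, the scaffold of paraspeckles, had 8.96 per kilobase and MALAT1, a nuclear speckle RNA, 26.6 per kilobase. All listed RNAs of these lists were below BC200 before division by length, and all those with a known length were below it per kilobase. SNAR-B1, a further Pol III RNA with a level of 0.446, had no known length. The highest per kilobase was SNHG1, 102-fold below BC200, and the highest before division by length was TUG1, a long noncoding RNA, with a level of 6692 against 59756.7 for BC200.

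**Figure D3:**
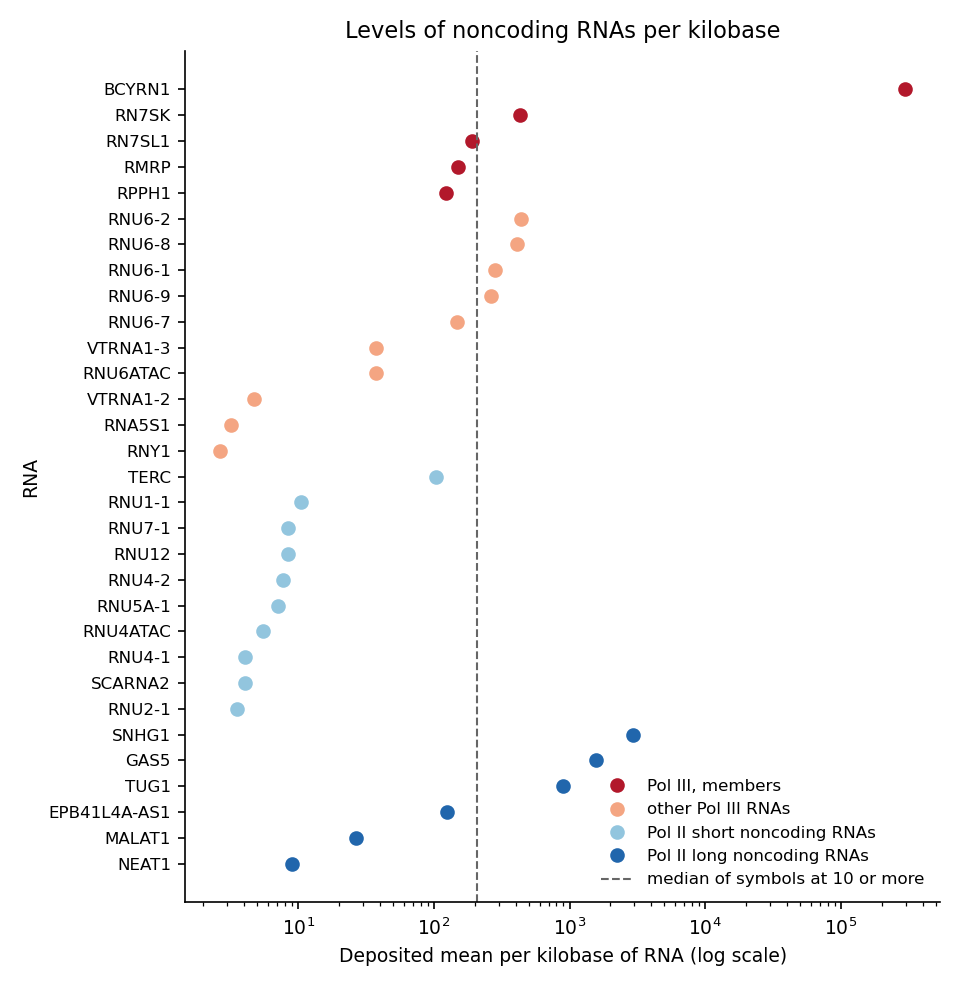
Deposited mean per kilobase of RNA (log scale) for the listed members, other Pol III RNAs and short and long Pol II noncoding RNAs that have a known length. The dashed line is the median of 207.4 over symbols at a level of 10 or more, and BCYRN1 at 298783 stands apart from all the others.

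The proteins that make or bind these RNAs were all listed, and all were at 10 or more. None reached BC200 per kilobase. Of the 13 Pol III subunits, 12 were above the median of all symbols per kilobase, and the list had a median of 814 per kilobase. POLR1D, a subunit shared with Pol I, was the highest at 4000 per kilobase. The alternative subunits POLR3G and POLR3GL had 120 and 252 per kilobase, and the catalytic subunit POLR3A had 719 per kilobase. Of 18 initiation factors, 14 were above the median, with a list median of 567 per kilobase. GTF3C5 and GTF3C1, subunits of TFIIIC, had 3865 and 2463 per kilobase. BRF2, which serves promoters outside the gene, had 115 per kilobase against 359 per kilobase for BRF1, which serves those inside it. MAF1, the Pol III repressor, had 2851 per kilobase, and SSB (La), which binds the 3′ end of new Pol III transcripts, 5263 per kilobase.

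Proteins of the complexes that hold 7SL, RNase P, RNase MRP and 7SK RNA were also mostly above the median of all symbols. The 6 SRP proteins had a median of 1794 per kilobase, with SRP14 at 4813 and SRP9, its partner on the Alu part of 7SL, at 296 per kilobase. All 6 of them exceeded RN7SL1 per kilobase, in libraries that the labels describe as enriched on oligo dT. The part of that enrichment, or of reads that RN7SL1 shares with RN7SL2, in this order was not tested. Of the 10 proteins of RNase P and RNase MRP, 9 were above the median of all symbols, with RPP21 at 7299 per kilobase. Of the 7 partners of 7SK RNA, 5 were above that median. MEPCE, which caps 7SK, had 2211 per kilobase and LARP7, which binds its 3′ end, 2018 per kilobase. HEXIM1, which inhibits P-TEFb on 7SK, had 318 per kilobase and its relative HEXIM2 had 31.3 per kilobase. The kinase CDK9 had 380 per kilobase.

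Of the 7 proteins known to bind BC200, SRP9 and SRP14 are also in the SRP list above. Among the 7, PABPC1, the poly(A)-binding protein, was highest at 14187 per kilobase, 21.1-fold below BC200. HNRNPA2B1, an RNA transport factor, had 13514 per kilobase and SYNCRIP 2518 per kilobase. Before division by length the order of the highest turned round, with HNRNPA2B1 at 49029.9 and PABPC1 at 40588.4. Both were then much nearer to BC200, at 59756.7. EIF4A1, the helicase that BC200 inhibits, had 253 per kilobase. All 7 were above the median of all symbols. These values are of messenger RNA and RNA levels alone, and the amounts of protein were not measured here.

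**Figure D4:**
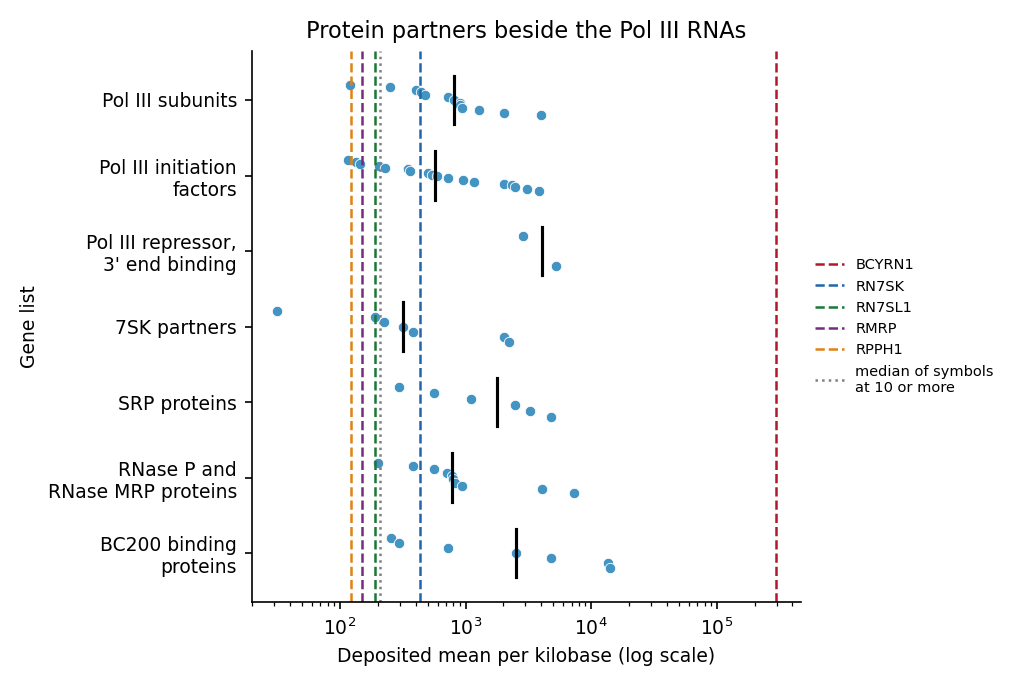
Deposited mean per kilobase (log scale) of the genes in 7 lists of protein partners, with 1 point per gene, a black bar at each list's median, dashed lines at the 5 listed Pol III RNAs and a dotted line at the median of all symbols with a level of 10 or more. All points lie left of BCYRN1, and most lie right of RN7SL1, RMRP and RPPH1.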

How the data were processed

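RNA of 12 samples (4 groups of 3) was sequenced. The study's methods state that the authors aligned paired-end reads of 50 bases with DNAstar SeqManPro to GRCh38.p7, quantified genes with ArrayStar and QSeq, and compared compounds with vehicle by DESeq2 (version 1.40.1 in the submitters' processing notes, which name GRCh38 and GRCh37). The annotation, the filters and the treatment of reads with several matches are not given in the sources used here, nor is whether the counting used the strand that the libraries keep. The deposited signal is the authors' mean over all samples of values scaled for depth, and it was the same in the 3 tables for every symbol. The methods name RPKM, but over 14110 symbols the deposited means, multiplied by length in kilobases, summed to 124.3 times the largest total that RPKM values can reach, so they were divided by length here. A length correction of another kind cannot be told from the values. The remaining columns hold the authors' fold changes, errors, test statistics and p-values against vehicle, and were not used. The methods state a nominal depth, but the files used here give no total of any sample, so no interval, replicate error or test is given. The identity of the cell line was not checked against markers.

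Lengths were those of GENCODE 44 canonical transcripts, or RefSeq for mitochondrial genes. Of 15638 symbols with a mean of at least 10, 90.2% had a length, 699 of them through an older symbol. Dates or plain numbers stood in place of 23 symbols. Windows of 50 bases were matched to 194 GRCh38 sequences with a search that was tested on simulated data. Python 3.11.15, pandas 2.3.3, numba 0.67.0 and Biopython 1.88 were used. The genes named are the 6 members, lists of their partners and of other noncoding RNAs, their annotated neighbours and, chosen after their values were seen, the symbols next to BC200 in level per kilobase. The members and lists were chosen with earlier results of these data known. The alternatives tried were another length, other symbols ranked or summed, longer windows and mismatches. The promoter table held none of BCYRN1, RMRP, RPPH1, RN7SK, RN7SL1 and RN7SL2. Some sequences and genes are not reported here.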

Additional observations from a re-analysis of the deposited data

How the results depend on the processing

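No comparison between groups was made, so the limits are those of a pooled mean with no spread. No paired analysis was possible because the deposited means pool all 12 samples. With usable read starts as the length, levels per kilobase were 395740 for BCYRN1, 507 for RN7SK, 228 for RN7SL1, 185 for RMRP and 144 for RPPH1, in the same order. Ordered by level and not per kilobase, RPPH1 took place 4 and RMRP place 5, and the other 3 members kept their places. Among symbols with a mean of at least 10, RN7SK was above 29.6%, RN7SL1 above 19.2%, RPPH1 above 15.8% and RMRP above 15.5%. The members' share of the summed level, 0.1642%, was 0.1836% without the 10 highest symbols. It was 0.1866% without the 37 mitochondrial genes, an alternative chosen after seeing the data because no symbol starts with MT- and the planned removal left the share at 0.1642%. Windows of 100 bases were found at a single place in 3.0% for BCYRN1, 48.0% for RN7SK, 25.5% for RN7SL1 and 17.9% for RN7SL2. With up to 2 mismatches, also chosen after seeing the data, the share of 50-base windows at a single place was 0.7% for BCYRN1, 95.8% for RMRP and 0.0% for RN7SK, RN7SL1 and RN7SL2. With genes at 10 or more alone, the median per kilobase was 283.9 in place of 92.22 for the other Pol III RNAs and 103.5 in place of 7.361 for the short Pol II RNAs, and in the other 8 lists every gene was at 10 or more. Summing RN7SL1 with RN7SL2 gave no value, since RN7SL2 was not listed, and the search for TATAA or TATA before the start was not run, since the promoter table held none of the members.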
